A study of Mus musculus with 22 samples.

Results

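The promoters of 10 germline genes, Dazl, Ddx4, Mael, Sycp1, Sycp3, Tdrd1, Hormad1, Asz1, Mov10l1 and Stk31, were examined in embryonic mouse forebrain. Their CpGs were taken within 1 kb of any RefSeq start site of the gene on GRCm38 (mm10), which gave 326 CpGs where some sample reached 10 reads on 1 strand, of 2095436 such CpGs on chromosomes 1 to 19. A promoter level could be given for 8 of the 10 genes, among 16102 of 37900 genes. Mov10l1 and Stk31 had too few reads, and the other genes kept 268 CpGs that were covered in at least 3 control and 3 EtOH-exposed samples.

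DNA methylation was measured by rapid reduced representation bisulfite sequencing, in which MspI cuts the genome at CCGG and the CpG-rich fragments are sequenced after bisulfite treatment. Wild type C57BL/6 forebrains were collected at E10.5, 6 from control embryos of dams injected with saline and 16 from embryos of exposed dams. The exposed dams were given 2 injections of ethanol at 2.5 g/kg, 2 h apart, at E2.5, the 8-cell stage. The paper states that embryos with visible defects or delays were left out, so the values describe exposed embryos of normal appearance. Each sample was 1 embryo, and both sexes were included in each group without the labels giving the sex of a sample. Both groups held fewer litters than embryos, the labels do not give the litter, and the whole forebrain mixes its cell types. The control samples held 68126469 to 132488556 CpG calls and the EtOH-exposed samples 89179413 to 216223892.

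Germline genes of this kind have CpG-rich promoters that are bare in germ cells and become methylated by DNMT3B in the embryo proper after implantation, and this methylation keeps them silent in somatic tissue. Their promoters are first recognised by a variant Polycomb complex, PRC1.6, in which E2F6 reads a GGCGGGA core and the MGA and MAX pair reads the E-box CACGTG. Dazl and Ddx4 encode RNA-binding proteins of germ cells, Mael, Tdrd1, Asz1, Mov10l1 and Stk31 encode proteins tied to the piRNA pathway or the germ granule, and Hormad1, Sycp1 and Sycp3 encode proteins of meiotic chromosomes. Exposure at E2.5 came before this wave of methylation, so the comparison asks whether it was later laid down to the same level.

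The promoter sequences shared a high CpG content. From 250 bp before to 50 bp after the curated start site, the median GC content of the 10 genes was 64.2%, against 53.0% over 31396 RefSeq promoters of chromosomes 1 to 19, and the median ratio of observed to expected CpGs was 0.782 against 0.389. The letters CACGTG, the same on both strands, stood in 8 of the 10 promoters, in 7.14% of all promoters and in 11.2% of the 11424 promoters with a CpG ratio of at least 0.6. GGCGGGA was found on either strand in 3 of the 10, Ddx4, Mael and Hormad1, against 11.4% of all promoters and 25.1% of the CpG-rich ones. Among the other germline genes, 12 of 56 promoters held CACGTG. A match is a description of the letters and not of a bound site.

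The promoters of Asz1, Hormad1 and Ddx4 are shown, from RefSeq GRCm38.p6 in the direction of transcription, because they stood for a uniformly methylated promoter, one with 2 lower CpGs, and one with mixed levels. Capitals mark the CpGs that had a value in at least 3 samples of each group.
Asz1, chr6:18109012-18109311, minus strand: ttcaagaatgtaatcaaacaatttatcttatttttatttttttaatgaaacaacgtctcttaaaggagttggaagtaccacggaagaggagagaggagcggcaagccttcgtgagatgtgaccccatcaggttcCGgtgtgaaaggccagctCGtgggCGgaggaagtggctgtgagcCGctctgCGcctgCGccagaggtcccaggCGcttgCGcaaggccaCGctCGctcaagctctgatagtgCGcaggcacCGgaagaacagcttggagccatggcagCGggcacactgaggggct
Hormad1, chr3:95559427-95559726, plus strand: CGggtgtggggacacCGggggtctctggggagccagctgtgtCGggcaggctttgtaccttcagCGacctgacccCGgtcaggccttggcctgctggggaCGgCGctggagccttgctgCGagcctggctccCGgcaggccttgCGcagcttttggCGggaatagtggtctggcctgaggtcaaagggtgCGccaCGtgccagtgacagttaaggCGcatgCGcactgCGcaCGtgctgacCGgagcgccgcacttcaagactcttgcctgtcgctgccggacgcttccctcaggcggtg
Ddx4, chr13:112652261-112652560, minus strand: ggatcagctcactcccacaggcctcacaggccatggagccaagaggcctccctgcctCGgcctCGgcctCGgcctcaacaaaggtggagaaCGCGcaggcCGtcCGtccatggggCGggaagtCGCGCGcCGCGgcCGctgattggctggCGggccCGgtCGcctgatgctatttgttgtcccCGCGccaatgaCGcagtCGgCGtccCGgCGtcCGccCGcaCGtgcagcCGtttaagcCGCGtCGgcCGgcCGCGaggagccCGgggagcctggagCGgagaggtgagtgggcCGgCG

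In control forebrain, methylation was high across most of the measured CpGs. Of the 268 CpGs, 160 had a mean control level of at least 80%, 70 lay between 20% and 80%, and the 38 under 20% all belonged to Dazl. The level of a promoter was the number of methylated reads over all reads at its CpGs that were covered in at least 5 samples of each group. The control mean of these levels was 93.9% ± 0.727 (SD, n = 6) for Asz1, 89.8% ± 4.65 (n = 6) for Sycp1, 88.2% ± 2.47 (n = 6) for Hormad1, 85.2% ± 6.19 (n = 6) for Mael, 78.7% ± 3.32 (n = 6) for Sycp3, 76.7% ± 2.64 (n = 5) for Tdrd1, 60.8% ± 12.1 (n = 5) for Ddx4 and 30.3% ± 12.3 (n = 6) for Dazl. In this order, the neighbouring means differed by less than the larger of their SDs from Asz1 through Sycp1 and Hormad1 to Mael and between Sycp3 and Tdrd1, and by more between Mael and Sycp3, Tdrd1 and Ddx4, and Ddx4 and Dazl. By comparison, the median control level over all 16102 promoters was 1.15%, and 11.2% of them were at 50% or more, against 7 of these 8.

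**Figure D1:**
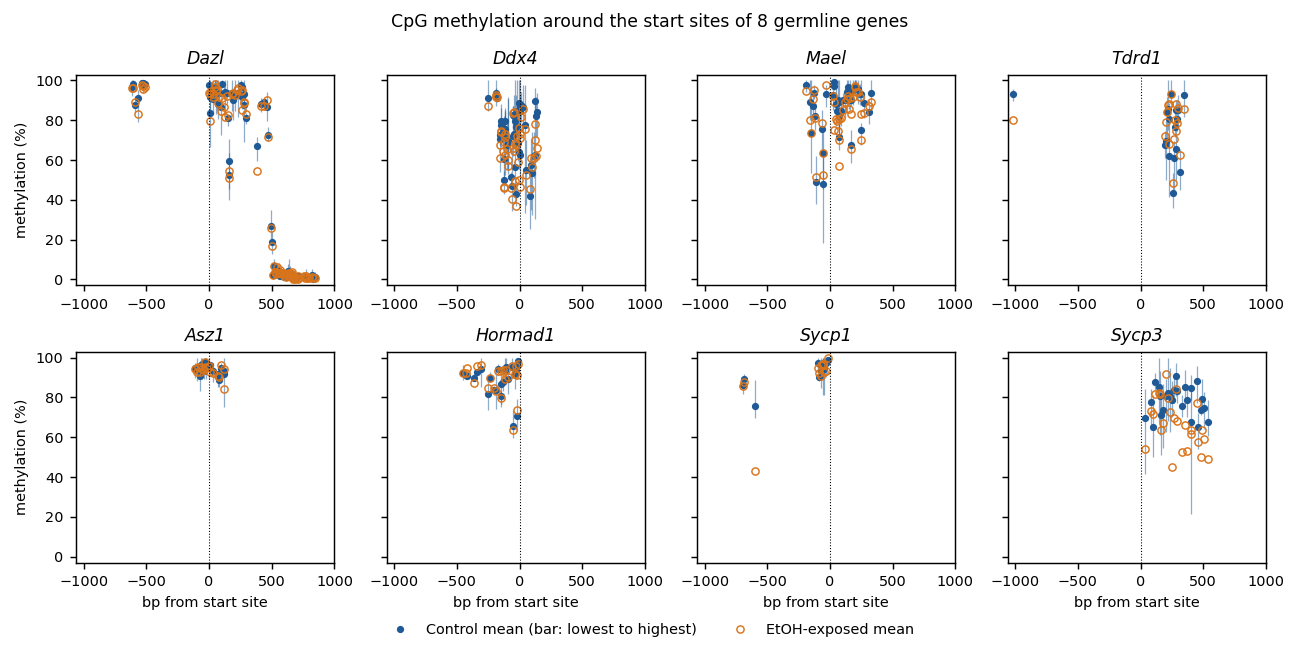
Methylation of each CpG (%) against its distance in bp from the curated start site farthest upstream, for 8 genes, with the control mean as a filled point, the lowest to highest control as a bar and the EtOH-exposed mean as an open circle. Dazl dropped from over 80% to under 7% within its first intron, Asz1 stayed between 88.8% and 97.9% in controls, and the open circles of Sycp3 lay below the filled points from +252 on.

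Dazl (gene ID 13164, chromosome 17, minus strand, curated start site at 50293620) combined a methylated promoter with an unmethylated stretch inside its first intron. From 617 bp upstream of the curated start site to 472 bp downstream, 44 CpGs had control means of 52.7% to 98.8%, and the highest stood at -525. In the noncoding exon 1, the 23 CpGs from the start site to +205 had a median control level of 93.5%, in at most 4 controls, and only the pair at +157 and +159 was under 80%, at 59.4% and 52.7%. Further into the first intron, 38 CpGs from 50292774 to 50293119 were all under 20%, and 37 of them were at 7% or less. The lowest, 831 bp downstream of the curated start site, was at 0.434% ± 0.708 (SD, n = 6).

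The change from one state to the other took few base pairs. At +501 the mean level was 18.9% ± 4.65 (SD, n = 4 controls), at +491 26.7% ± 7.18 (n = 5), at +472 72.5% ± 2.79 (n = 5) and at +461 86.5% ± 6.73 (n = 5), so that 40 bp separated the last CpG under 20% from the first over 80%. The start site of a predicted Dazl transcript lay at 50293168, 452 bp downstream of the curated one and 49 bp from the last CpG under 20%. EtOH-exposed samples had the same order of levels at these CpGs, with 16.8% ± 10.7 (SD, n = 13), 25.9% ± 3.75, 71.6% ± 5.50 and 90.2% ± 4.63 (n = 16 each). The boundary is shown with 100 bp on either side, with measured CpGs in capitals, from the methylated side on the left to the unmethylated side on the right. The letters CACGTG occurred in it at +513 and +533, and those CpGs had control means of 2.23% and 3.19%.
Dazl intron 1, chr17:50293034-50293233, minus strand: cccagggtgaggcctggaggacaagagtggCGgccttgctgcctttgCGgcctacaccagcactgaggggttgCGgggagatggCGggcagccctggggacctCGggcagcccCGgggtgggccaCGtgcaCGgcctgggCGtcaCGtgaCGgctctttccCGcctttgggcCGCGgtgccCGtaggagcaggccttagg

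**Figure D2:**
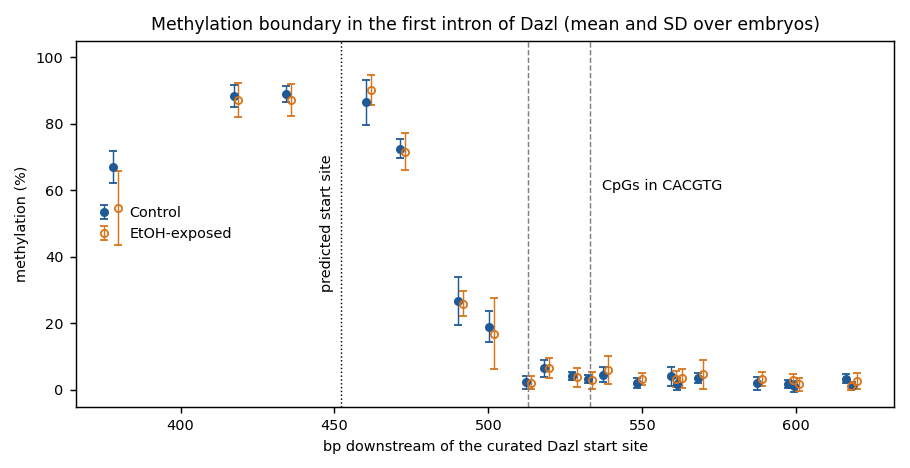
Methylation (%) of CpGs in the first intron of Dazl against distance in bp from the curated start site, as mean and SD over control (filled) and EtOH-exposed (open) embryos, with the predicted start site dotted and the CpGs in CACGTG dashed. Both groups dropped from 86.5% and 90.2% at +461 to 18.9% and 16.8% at +501.

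The read-weighted Dazl level moved with how many reads came from each side of that boundary. The control samples had levels from 8.57% to 39.6% (median 36.1%) and the EtOH-exposed samples from 8.79% to 49.1% (median 26.1%), so the groups overlapped, and only EtOH-exposed 16 lay above the highest control. The EtOH-exposed mean minus the control mean was -5.03 points (exact permutation p = 0.366, two-sided, n = 6 and 16), and the share of reads from the unmethylated stretch ran from 50.5% to 92.9% in controls and from 41.5% to 91.0% in EtOH-exposed samples. Without control 2 the difference was -9.37 points (exact permutation p = 0.0946), and without control 6 it was -3.17 points (exact permutation p = 0.595). When each CpG counted equally, the mean was 61.2% ± 1.90 in EtOH-exposed samples and 58.6% ± 6.18 in controls (exact permutation p = 0.111, n = 16 and 6), but controls 2 and 6 held only 16 and 21 of the 28 CpGs. Taken apart, the unmethylated stretch was at 1.11% ± 0.393 (SD, n = 6) in controls and 1.08% ± 0.749 (n = 16) in EtOH-exposed samples. The methylated stretch was at 89.8% ± 1.79 (n = 5) and 88.4% ± 2.76 (n = 16). Since the 2 stretches were set from these control levels, their values carry no test. They used 8 of the 38 CpGs of the unmethylated stretch and 19 of the 44 of the methylated one. None of the 28 CpGs of the Dazl level lay between -509 and +257. The level and both stretch values therefore leave out the curated start site and exon 1.

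Of the genes with high levels, Asz1 (gene ID 74068, chromosome 6, minus strand, start site at 18109061), which encodes a germ granule protein needed for piRNA production, was the most even. All 18 of its CpGs, from 115 bp upstream to 119 bp into the coding exon 1, had control means between 88.8% at +79 and 97.9% at -36. Controls ran from 92.6% to 94.6% (median 94.0%) and EtOH-exposed samples from 88.5% to 96.2% (median 94.3%). EtOH-exposed 5 was the only sample below the lowest control and 6 of 16 lay above the highest. The difference of means was 0.165 points (exact permutation p = 0.839, two-sided, n = 6 and 16).

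Hormad1 (gene ID 67981, chromosome 3, plus strand, start site at 95559677), a component of the meiotic chromosome axis, was methylated upstream of its start site with 2 exceptions. Of its 24 CpGs, 22 were at 80% or more in controls, and the highest, 9 bp upstream, reached 98.5% ± 1.93 (SD, n = 6). The 2 lower ones stood at -55, with 65.6% ± 5.27 (n = 6), and at -18, with 70.7% ± 5.80 (n = 6). Both lay in the letters CACGTG, and no other CpG of Hormad1 with a value did. The CpG at -55 was lower than every measured neighbour within 50 bp that lay outside CACGTG in 6 of 6 controls and 16 of 16 EtOH-exposed samples, and the CpG at -18 in 6 of 6 and 15 of 16. Promoter levels of Hormad1 ran from 84.8% to 91.0% (median 89.1%) in controls and from 72.8% to 91.7% (median 89.1%) in EtOH-exposed samples, with EtOH-exposed 4 and 6 below the lowest control. The difference of means was -0.719 points (exact permutation p = 0.753, n = 6 and 16).

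The CpGs in CACGTG were compared across the genes for this reason, which was noticed in the data. In Ddx4 the CpG in CACGTG, at -26, had a control level of 43.0% ± 5.90 (SD, n = 3) against a median of 76.7% over 17 neighbours within 50 bp. In Sycp1 it was at 90.5% ± 2.11 (n = 5) at -91, against a median of 96.1% over 7 neighbours. By single embryos, the Ddx4 CpG was below every such neighbour in only 1 of 3 controls and 6 of 14 EtOH-exposed samples. For the Sycp1 CpG this held in 3 of 5 controls and 2 of 10 EtOH-exposed samples. The 2 in Dazl were among the unmethylated CpGs described above. Their sequences are shown with the motif in capitals, for the CpGs with a value in at least 3 samples of each group.
Hormad1 -55: ggtgcgcCACGTGccagtga
Hormad1 -18: cactgcgCACGTGctgaccg
Ddx4 -26: ccgcccgCACGTGcagccgt
Sycp1 -91: aacccggCACGTGggaaggg
Dazl +513: ggtgggcCACGTGcacggcc
Dazl +533: tgggcgtCACGTGacggctc

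CpGs in CACGTG were also compared in promoters of genes outside the list. Over such promoters at 50% or more in controls and with at least 5 CpGs, the 34 CpGs in CACGTG had a median of -6.11 points relative to the median of their own promoter, and 30 of 34 were below it. The 154 CpGs in ACGT outside CACGTG had a median of -2.20 points, with 110 of 154 below, and 3881 CpGs in neither ACGT nor CCGG had a median of 0 points with 46.6% below. Among the latter, 190 CpGs in TCGT had a median of -2.07 points and 162 in ACGA one of -1.38 points, so a shortfall of that size was not particular to ACGT. A shortfall of at least 20 points was found for 23.5% of CpGs in CACGTG, 12.3% of those in other ACGT, 7.58% of those in CCGG and 5.62% of those in other sequence. In the germline genes, with Dazl limited to its methylated stretch, 17 of 229 CpGs were at least 20 points under the median of their promoter. Of the 17, 5 lay in ACGT, including 3 in CACGTG, against 8 and 4 of the 229, and 8 had another CpG 2 or 3 bp away, against 59 of the 229. The 3 in CACGTG include both Hormad1 CpGs that prompted the comparison, so that count carries no separate support. These shares are descriptions over CpGs, which are not independent of each other.

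**Figure D3:**
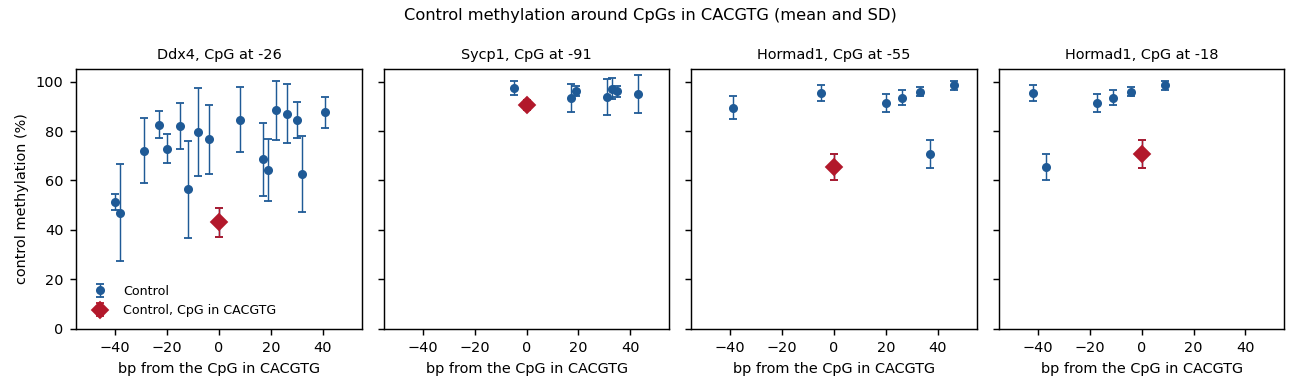
Control methylation (%, mean and SD over 3 to 6 embryos) of CpGs within 50 bp of a CpG in CACGTG, against distance in bp, for Ddx4, Sycp1 and the 2 sites of Hormad1. The red diamond, the CpG in CACGTG, sat at 43.0%, 90.5%, 65.6% and 70.7%, below the median of its neighbours in each panel.

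Ddx4 (gene ID 13206, chromosome 13, minus strand, start site at 112652310), which encodes the germ cell helicase also called Vasa, was the most mixed promoter. Over 47 CpGs from 252 bp upstream to 137 bp downstream of the curated start site, 32 had control means between 20% and 80% and 15 were at 80% or more. The lowest of all was at 42.1% ± 16.5 (SD, n = 5), 40 bp from the nearest start site, and the highest at 93.7% ± 5.20 (n = 4), 136 bp from the nearest start site and at -186 from the curated one. The promoter level used the 8 of these CpGs that were covered in enough samples. Controls had promoter levels from 46.2% to 73.7% (median 56.9%, n = 5) and EtOH-exposed samples from 42.0% to 72.3% (median 59.8%, n = 16), and only EtOH-exposed 8 was below the lowest control. The means differed by -1.48 points (exact permutation p = 0.783, n = 5 and 16). Over all 47 CpGs, 40 had lower EtOH-exposed means, with a median difference of -5.99 points, but those outside the level had values in only 3 or 4 controls. The level over CpGs covered in 3 samples per condition differed by -5.47 points (exact permutation p = 0.219). Other settings turned the sign, with 4.85 points within the library group that holds all controls (exact permutation p = 0.475). With the coverage covariate described under Sycp3 it was 6.99 points (permutation p = 0.11, not exact). Each level rested on 94 to 707 reads, and at this spread between controls a small difference was not detectable.

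Mael (gene ID 98558, chromosome 1, minus strand, start site at 166238744), needed for transposon silencing by piRNAs, was methylated on both sides of its start site. Its 40 CpGs had a median control level of 90.3%, and the lowest was at -54 with 48.1% ± 17.6 (SD, n = 5), next to 63.7% at -56. The highest, at +30 in exon 1, had 99.3% ± 1.20 in only 3 controls and 75.3% ± 15.1 in 12 EtOH-exposed samples. Controls ran from 74.3% to 92.9% (median 86.0%) and EtOH-exposed samples from 64.3% to 86.9% (median 82.2%). EtOH-exposed 2, 5 and 6 lay below the lowest control, control 6. The difference of means was -5.12 points (exact permutation p = 0.0830, two-sided, n = 6 and 16), and it moved with the settings and with single controls. The exact permutation p was under 0.05 with 5 reads (0.0128) or 20 reads (0.0424), with 3 samples per condition (0.0131), from 1000 bp upstream to 100 bp downstream (0.0452) and over shared CpGs (0.0398), at -7.34 to -5.67 points. Without control 6 it was -7.31 points (exact permutation p = 0.0144, n = 5 and 16), and without control 2, whose level rested on 2 CpGs and 141 reads, it was -3.58 points (exact permutation p = 0.242). Within the library group that holds all controls it was -3.09 points (exact permutation p = 0.268). The tile with the smallest p in this gene, chr1:166238601-166238700 in exon 1, was at 86.5% ± 5.12 (n = 5) in controls and 78.9% ± 7.17 (n = 16) in EtOH-exposed samples (exact permutation p = 0.0397).

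Tdrd1 (gene ID 83561, chromosome 19, plus strand, first curated start site at 56826209), a tudor protein that binds PIWI proteins, was the only one of the 8 whose mean was higher by more than 1 point. Its covered CpGs lay mainly in the first intron of the curated transcript that starts farthest upstream, next to other start sites of the gene. The lowest, 52 bp from the nearest start site, was at 43.6% ± 7.85 (SD, n = 4). The highest, at 93.3% ± 2.63 (n = 4), stood at -983 from the nearest start site. Among CpGs with a value in at least 3 samples of each group, it was the only one upstream of the first curated start site. Controls ran from 74.5% to 80.8% (median 75.3%, n = 5) and EtOH-exposed samples from 75.9% to 90.9% (median 80.8%), with 8 of 16 above the highest control. The mean difference was 4.73 points (exact permutation p = 0.0369, two-sided, n = 5 and 16). It depended on the settings. It was 7.93 points within the library group that holds all controls (exact permutation p = 0.00884, n = 5 and 7, since control 6 had no level) and 3.67 points when CpGs counted equally (exact permutation p = 0.106). With CpGs covered in 3 samples per condition it was 0.54 points (exact permutation p = 0.851), and with a minimum of 5 reads -1.80 points (exact permutation p = 0.545). Without control 1, 2 or 3 the exact permutation p was 0.0857, 0.0908 and 0.0788.

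Sycp1 (gene ID 20957, chromosome 3, minus strand, start site at 102936100), the transverse filament of the synaptonemal complex, was highly methylated near its start site. The 10 CpGs from -96 to -18 had control means of 90.5% to 98.9% and EtOH-exposed means of 90.8% to 100%, with at most 10 EtOH-exposed samples covered. A single CpG of a CCGG site at -599 was lower, at 75.7% ± 7.75 (SD, n = 5) in controls and 43.1% ± 24.4 (n = 10) in EtOH-exposed samples. Promoter levels ran from 84.3% to 95.7% (median 88.6%, n = 6) in controls and from 63.2% to 96.5% (median 89.1%, n = 15) in EtOH-exposed samples, 6 of which lay below the lowest control. Of these 6, EtOH-exposed 1, 4, 6, 11 and 16 were measured at only the 3 CpGs from -698 to -599, which among controls held only for control 6, so their levels rest on other CpGs than most. The difference was -4.56 points (exact permutation p = 0.314), and it was -2.98 points without EtOH-exposed 6, whose level rested on 38 reads (exact permutation p = 0.430), and -1.30 points without EtOH-exposed 4, 5, 6 and 14 (exact permutation p = 0.721). Over shared CpGs it was -0.792 points (exact permutation p = 0.552), and it was 1.08 points without the CpGs of CCGG sites (exact permutation p = 0.504).

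Sycp3 (gene ID 20962, chromosome 10, plus strand, start site at 88459587), the lateral element of the synaptonemal complex, showed the largest difference of the 8. Controls ran from 74.9% to 83.9% (median 77.9%) and EtOH-exposed samples from 39.4% to 81.0% (median 65.6%). The controls sat close together, 13 of 16 EtOH-exposed samples lay below the lowest of them, and EtOH-exposed 1, 3 and 12 lay within their range. At least as many samples below the lowest control were found for 1.25% of 560 promoters with values in all samples and a control level of at least 50%. Sycp3 is itself among these promoters. The difference of means was -14.7 points, with 64.0% ± 12.4 (SD, n = 16) against 78.7% ± 3.32 (n = 6, exact permutation p = 0.0103, two-sided).

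The measured Sycp3 CpGs ran from +38 to +540, none of them upstream of the start site, with the highest control mean at +282 (90.9% ± 6.06, SD, n = 6) and the lowest at +458 (65.2% ± 7.65, n = 5). All 15 CpGs from +252 to +540 had lower means in EtOH-exposed samples, with differences of -33.9 to -4.08 points and a median of -15.5 points. The -33.9 points were found at +252, a CpG of a CCGG site. In the methylated promoters outside the list, CpGs in CCGG had a median difference of -3.37 points. Those in neither ACGT nor CCGG had one of -1.03 points. Of the 11 CpGs from +38 to +239, 8 were lower, with a median difference of -4.92 points and -15.8 points at +38, where 5 EtOH-exposed samples had a value. The difference between these stretches was not tested. The tile chr10:88459901-88460000 was at 80.1% ± 3.57 (SD, n = 6, from 74.2% to 84.7%) in controls and at 58.8% ± 16.1 (n = 16, from 27.1% to 80.9%) in EtOH-exposed samples (exact permutation p = 0.00492). In the tile too, 13 of 16 lay below the lowest control. Its sequence is shown, since it carried the largest tile difference of the 8 genes, with capitals for CpGs that had a value in at least 3 samples of each group. The CpGs in lower case, at +379 and +389, also entered the tile values, in 1 control each and in 8 and 7 EtOH-exposed samples.
Sycp3 intron 1, chr10:88459901-88460000, plus strand: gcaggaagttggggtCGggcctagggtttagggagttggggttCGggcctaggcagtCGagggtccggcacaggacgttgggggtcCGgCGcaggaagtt

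The size of the Sycp3 difference depended on whether a property of the libraries was in the fit, and on the CpGs used. Coverage of methylated relative to unmethylated CpGs, as a log2 ratio to the control mean, ran from -0.654 to 0.134 in controls and from -2.14 to -0.0474 in EtOH-exposed libraries. EtOH-exposed 7, 10, 13, 15 and 16 had ratios within the control range and Sycp3 levels of 66.5% to 73.5%, below the lowest control. EtOH-exposed 1 and 12 lay within both control ranges. EtOH-exposed 3, at a ratio of -1.39, had a level of 79.2%, within the control levels. The other EtOH-exposed samples lay below both control ranges. With this ratio as a covariate, the Sycp3 difference was -4.16 points (permutation p = 0.268, not exact because the ratio differed between the groups). Without EtOH-exposed 4, 5, 6 and 14, the libraries with the lowest ratios together with the lowest mean levels over methylated promoters, it was -10.4 points (exact permutation p = 0.0289, n = 6 and 12). Within the library group that holds all controls and 7 EtOH-exposed samples, formed from the level at unmethylated tiles, it was -13.3 points (exact permutation p = 0.00233). It was -13.8 points without CpGs of CCGG sites (exact permutation p = 0.0114) and -12.5 points when CpGs counted equally (exact permutation p = 0.0237). Larger differences were found with 20 reads, at -19.6 points (exact permutation p = 0.00501), and with CpGs covered in all 22 samples, at -19.5 points (exact permutation p = 0.00665). Over shared CpGs it was -19.6 points (exact permutation p = 0.00682). The part of the coverage ratio in the difference was not tested further.

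**Figure D4:**
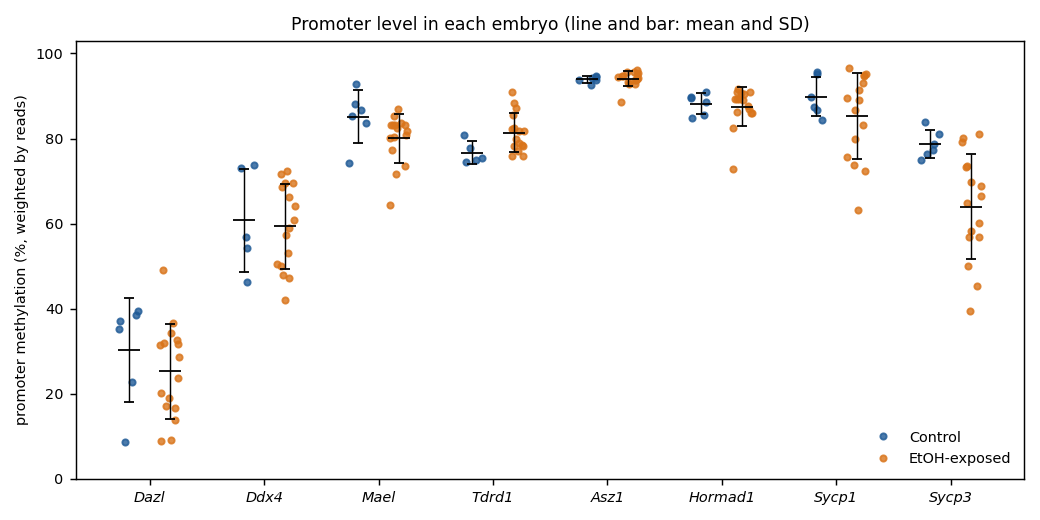
Promoter level (%, methylated reads over all reads) of 8 germline genes in each control (blue) and EtOH-exposed (orange) embryo, with mean and SD. The EtOH-exposed samples of Sycp3 spread from 39.4% to 81.0% and those of Asz1 from 88.5% to 96.2%.

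None of the 8 promoters passed the test across all genes. With a quasi-binomial F test and Benjamini-Hochberg adjustment over 16102 promoters, 1 promoter had an adjusted p under 0.05, C1qtnf4, a share of 0.00621%. That count ran from 0 to 13 when 1 sample was left out, with 13 without EtOH-exposed 12, 7 without control 5 and 4 without control 4. Adjusted p was 0.751 for Tdrd1, 0.805 for Sycp3, 0.970 for Mael and 0.9999 for each of the other 5. At an unadjusted p under 0.05, 3 of the 8 passed (Sycp3, Tdrd1 and Mael), beside 711 of all promoters and 158 of the 1802 at 50% or more in controls. limma on log2 ratios called 0 of the 8 and 0 of all promoters. By the exact test per promoter at an unadjusted 0.05, 2 of the 8 passed, Sycp3 and Tdrd1, and of the 5 with values in all samples 1 passed, Sycp3. That test passed 4.46% of the 11696 promoters with values in all samples, and 15.7% of the 560 among them with a control level of at least 50%.

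At the level of 100 bp tiles, the logistic test that pools the reads of each group, with q under 0.01 and a difference of at least 10 points, called 2 of 27 tiles around these genes, both in Sycp3 and both lower in EtOH-exposed samples. It called 1.14% of 114430 tiles in all, and 1.08% as lower. These shares are over tiles of any control level, and the share among methylated tiles alone was not computed. The 2 called tiles adjoin each other. The tile chr10:88459901-88460000 had a difference of -17.4 points weighted by reads (q = 7.48e-60), and the tile before it, chr10:88459801-88459900, one of -14.9 points (q = 2.29e-48). When the spread between embryos was estimated for each tile, 0 tiles were called in these genes or elsewhere, with 6598 tiles at an unadjusted p under 0.05, and the same tile had an adjusted p of 0.830 in that F test. limma called 0 tiles too. The tiles with the smallest logistic p of the other genes had differences, pooled over reads, of -7.31 points for Mael, -7.05 for Ddx4, -6.63 for Dazl, -0.975 for Sycp1, 0.515 for Hormad1, 0.587 for Asz1 and 7.82 for Tdrd1, none of them called. With each embryo counted equally, the difference was -0.0518 points for the Ddx4 tile (exact permutation p = 0.994) and 3.39 points for the Tdrd1 tile (exact permutation p = 0.342).

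**Figure D5:**
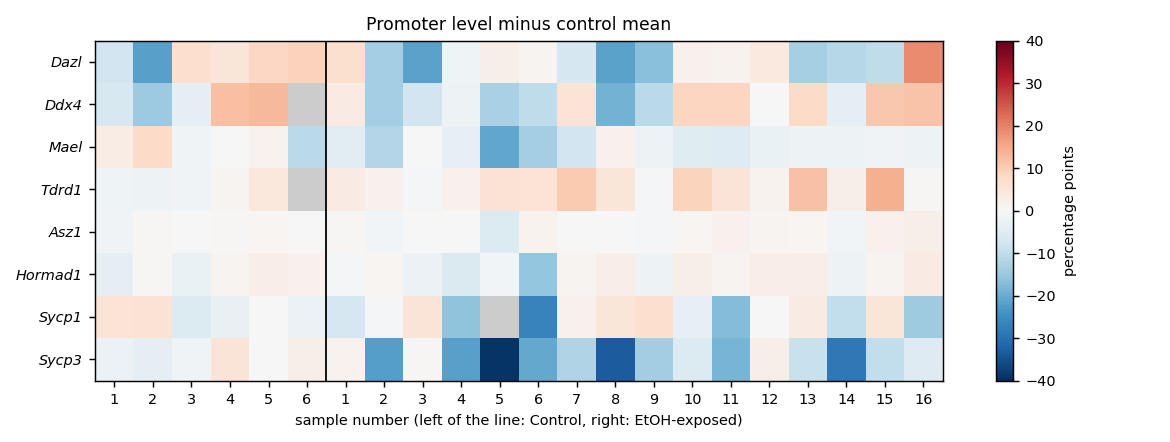
Promoter level minus the control mean (percentage points) for 8 germline genes in 6 control and 16 EtOH-exposed samples, with grey for samples without a value. The darkest blue fields were Sycp3 in EtOH-exposed 5, at 39.4%, and EtOH-exposed 8, at 45.4%, while Asz1 stayed pale throughout.

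Across embryos, the number of promoters below the control range differed. EtOH-exposed 6 lay below the lowest control in 4 of 8 promoters (Hormad1, Mael, Sycp1 and Sycp3), EtOH-exposed 4 in 3 of 8 and EtOH-exposed 5 in 3 of 7, while EtOH-exposed 3 and 12 did so in 0 of 8. For the 1802 promoters at 50% or more in controls, the same share was 61.1%, 63.6% and 64.9% in EtOH-exposed 6, 4 and 5, and 22.5% and 7.62% in 3 and 12, out of those with a value. The median difference over the 8 promoters was -3.02 points, with 6 lower, beside -2.22 points and 82.2% lower over those 1802 promoters and 0.00521 points over all 16102. The SD was larger in EtOH-exposed samples for 5 of the 8, beside 81.4% of the 1802.

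The 2 genes without a level are Mov10l1 (gene ID 83456, chromosome 15, plus strand, start site at 88982994), a helicase of piRNA biogenesis, and Stk31 (gene ID 77485, chromosome 6, plus strand, start site at 49395539), a germ cell kinase with a tudor domain. Mov10l1 had 8 CpGs with at least 10 reads, from +446 to +705 in its first intron, in at most 2 controls and 0 EtOH-exposed samples, with levels of 77.8% to 98.2%. Stk31 had 23 CpGs with a read and at most 5 reads on a strand. At this depth the groups could not be compared for these genes.

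The other genes on the lists put these levels in context. Of 55 other germline genes, 30 had a promoter level, with 16 at 50% or more in controls, 11 under 10%, and Dkkl1, Mei1 and Henmt1 between, at 18.9%, 21.2% and 38.4%. The highest control means were 96.3% for Tex14, 96.2% for Tuba3a and 95.6% for Tuba3b. Tuba3a and Tuba3b are near-identical tubulin genes, and their reads may not be told apart. The lowest were 0.861% for Terb1, 0.949% for Meiob and 1.27% for Prdm9, which encode meiotic proteins as Sycp1 and Hormad1 do. None of the 30 passed the fit across all promoters, and 3 had an unadjusted p under 0.05. The largest differences were -12.3 points for Hormad2, the paralogue of Hormad1, -8.99 for Rnf17 and -3.85 for Henmt1, and at the other end 0.902 for Tdrd6, 0.784 for Smc1b and 0.343 for Majin. The promoters of 10 repressors of germline genes, among them E2f6, Mga, Max and Dnmt3b, were at 0.742% to 1.54% in controls, and 7 of 8 housekeeping promoters were under 10%.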

How the data were processed

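rRRBS libraries of 22 E10.5 forebrains were analysed, 6 control and 16 EtOH-exposed. The submitters' processing notes name Trim Galore 0.3.3 for trimming, BSMAP 2.90 for alignment and the mm10 build. The deposited counts are reads per cytosine and strand, and the deposited percent values are the shares of methylated and unmethylated reads, rounded by the authors to 1 decimal, without a coverage minimum. The number of methylated reads was the rounded product of coverage and percent. Strands with at least 10 reads were kept and added up.

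Promoters spanned 1000 bp on either side of any RefSeq start site on chromosomes 1 to 19. CpGs covered in at least 5 samples per condition were used, with at least 2 CpGs per sample and 5 samples per condition. A promoter had 38 to 20855 reads in the samples of the 8 genes. PCR copies were not told apart from molecules, so depth gives counting error only. Promoters were tested with a quasi-binomial F test and tiles of 100 bp with at least 2 CpGs with a logistic likelihood-ratio test, both with Benjamini-Hochberg adjustment over the whole table. Levels of single embryos were put to an exact permutation test, two-sided, with 74613 splits where all samples had a value. With the coverage covariate, the groups were split anew while each sample kept its ratio. Since the ratio differed between the groups, that p is not exact. Embryos were treated as independent, although ethanol was given to the dam and both groups held fewer litters than embryos. The labels do not give the litter of a sample, so these p-values count embryos and not litters. In any pair of libraries at most 0.991% of shared CpGs had equal coverage.

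Named were all 10 genes, with the called tile of largest difference or else the tile of smallest p, the CpGs with the highest and the lowest control mean, every called promoter, and the extreme values of the other germline genes. The members, gene lists and motifs were chosen with earlier results of these data known. Alternatives were other read minimums, windows, CpG sets, models and libraries, a coverage covariate, a block for the replicate number, and each sample left out in turn. The limit of 3 samples per condition and the unweighted mean over CpGs shared by the samples were added after the data were seen, as were the comparison of CpGs in CACGTG with their neighbours and the division of Dazl and Sycp3 into stretches. The functions were tested on simulated data. Python 3.11.15 with numpy 2.4.6, scipy 1.17.1 and pandas 2.3.3 and R 4.3.3 with limma 3.58.1 were used.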

Additional observations from a re-analysis of the deposited data

How the results depend on the processing

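The count of 0 promoters called among the germline genes was kept in every alternative put to this test, with a single exception. The logistic model without overdispersion called 6 of 8 and 8503 of all promoters. The unweighted means were not put to this test. With 20 reads only 5 genes had a value, and with CpGs covered in all 22 samples only 4. The 2 called tiles became 0 with overdispersion and with limma, 10 without a minimum difference and 7 with the replicate block, and 2 to 3 when a sample was left out. Over all genes, the 1299 called tiles became 2384 with 5 reads, 553 with 20 reads, 4818 with 3 samples per condition, 353 with the covariate, 3547 with the block and 24890 without a minimum difference, and the 1 called promoter became 3 without EtOH-exposed 4, 5, 6 and 14 and from 1000 bp upstream to 100 bp downstream, 4 with 5 reads, and 0 with limma, 20 reads, CpGs in all 22 samples or 3 per condition, without CCGG sites, in the library group, with the covariate and with the block, and 0 to 13 when a sample was left out. The 2 promoters with a permutation p under 0.05 became 1 with strands added before the minimum, with CpGs covered in all 22 samples and without CCGG sites. They also became 1 without EtOH-exposed 4, 5, 6 and 14, with the coverage covariate and with an unweighted mean. They became 3 over shared CpGs, and 1 to 3 when a sample was left out. With the replicate block over numbers 1 to 6 that count was 0, where Tdrd1 had 5 pairs, all higher in EtOH-exposed samples, and its exact permutation p of 0.0625 is the smallest that 5 pairs allow, and 0 promoters were called over all genes against 1 without it. The numbers are not shown to pair the samples, since the correlations of same-numbered samples' deviations ran from -0.707 to 0.451.

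Small differences turned sign. Hormad1 was at 0.537 points with 5 reads, 0.814 with 20 reads, 0.549 with strands added, 0.575 with 3 samples per condition, 2.05 in the library group, 1.06 without EtOH-exposed 4, 5, 6 and 14 and 2.70 with the covariate, but at -4.06 with the block, and from -1.41 to 0.262 when a sample was left out. Asz1 was at -0.0952 with 5 reads, -0.0391 with strands added, -0.572 with CpGs in all samples, -0.660 with the replicate block, -0.341 unweighted and -0.596 over shared CpGs, and from -0.0862 to 0.536 when a sample was left out. Ddx4 was at 1.14 without CCGG sites, 4.85 in the library group, 0.409 without EtOH-exposed 4, 5, 6 and 14, 6.99 with the covariate and 0.275 over shared CpGs, but at -3.68 with 5 reads, -5.47 with 3 samples per condition and -6.58 with the block, and from -5.12 to 1.74 when a sample was left out. Dazl was at 0.512 with the covariate and 2.63 unweighted, but at -8.37 with strands added, Sycp1 at 1.08 without CCGG sites and Tdrd1 at -1.80 with 5 reads. The cause was not tested. The Sycp3 difference kept its sign in all alternatives that gave it a value. The window from 1000 bp upstream to 100 bp downstream gave none. The Sycp3 difference ran from -15.8 to -13.1 points when a sample was left out. Its permutation p was above 0.05 with the covariate (-4.16 points) and with the block. With the block the difference was -16.9 points (exact permutation p = 0.125) over 6 pairs. When a sample was left out, Mael ran from -7.31 to -3.58 points, Dazl from -9.37 to -3.17 and Sycp1 from -5.67 to -2.98. With the block, Mael was at -8.93 and Sycp1 at -9.04 points. With 20 reads per strand only 5 of the 8 genes had a value, so depth limits what can be said of Ddx4, Sycp1 and Tdrd1.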
